A study of Mus musculus with 6 samples.

Results

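The genes described here form the machinery that decides whether a cell in G1 goes on to copy its DNA. They are the 3 D cyclins (Ccnd1, Ccnd2 and Ccnd3), the kinases they activate (Cdk4 and Cdk6) and 5 inhibitors of those kinases (Cdkn1a, Cdkn1b, Cdkn2a, Cdkn2b and Cdkn2c), 10 genes taken from a list by name. All 10 were present among the 22032 genes of the expression matrix, and all 10 had a mean of at least 1 TPM (transcripts for every 1000000 in a sample), as 13125 genes did. The samples were titled as mouse cartilage, 3 from embryos and 3 from adults. They were chondrocytes, the cells of cartilage, sorted as BMPR1B+ cells that lacked blood and endothelial lineage markers and alkaline phosphatase (LIN-ALP-BMPR1B+). The embryonic stage is labelled 16.5 wks and is embryonic day 16.5 in the study's methods. The adults were 2 months old, and the methods describe male B6 mice for the adult sort. No genotype, transgene or treatment is named for either stage, and how many animals went into a sample was not stated, so that the p-values measure the spread between these samples only. RNA was sequenced with single-end reads of 50 bases, and the deposited values are log2(TPM + 1) per gene, in which the depth of a library is no longer visible.

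A D cyclin is made in response to growth signals, binds CDK4 or CDK6, and the active kinase phosphorylates the retinoblastoma protein and its relatives, which frees E2F factors to switch on the genes of S phase. INK4 inhibitors (encoded by Cdkn2a, Cdkn2b, Cdkn2c and Cdkn2d) bind CDK4 and CDK6 alone and keep the D cyclins out, whereas CIP/KIP inhibitors (Cdkn1a, Cdkn1b and Cdkn1c) bind whole cyclin and kinase complexes and above all block CDK2. In cartilage the D cyclins serve chondrocyte division during growth, and p57, the Cdkn1c product, is known for its part in the exit from division in growth plate chondrocytes.

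The embryonic cells held high levels of all 3 D cyclins and of Cdkn1c, and the adult cells kept mainly Ccnd2, Cdk4 and Cdkn1a. Ccnd1 was 12.7-fold and Ccnd3 12.1-fold lower in the adult replicates, Cdkn2c 10.1-fold lower and Ccnd2 1.69-fold lower, as ratios of the mean TPM. Cdkn1a was the only one of the 10 called higher in the adult replicates, at 2.04 times its embryonic mean. Of the 10 genes, 1 was higher, 6 were lower and 3 did not pass the test (limma, Benjamini-Hochberg adjusted p under 0.05 over all 13125 tested genes). Over all tested genes 45.3% passed, 23.9% higher and 21.4% lower in the adult replicates. For the 10 genes the median log2 fold change was −0.66, between those of Cdkn1b and Cdk6, beside 0.16 over all tested genes. This median of the 10 genes includes Cdkn2a, whose embryonic values were all 0. With the filter at a mean of 5 TPM, which leaves Cdkn2a out, it was −0.70. The ranges of the stages did not overlap for 7 of the 10 genes, 1 above and 6 below in the adult replicates, beside 56.5% of all tested genes, 30.7% above and 25.9% below. Fold changes given below as log2 are adult minus embryonic differences of log2(TPM + 1), a scale that understates the change of low genes.

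**Figure D1:**
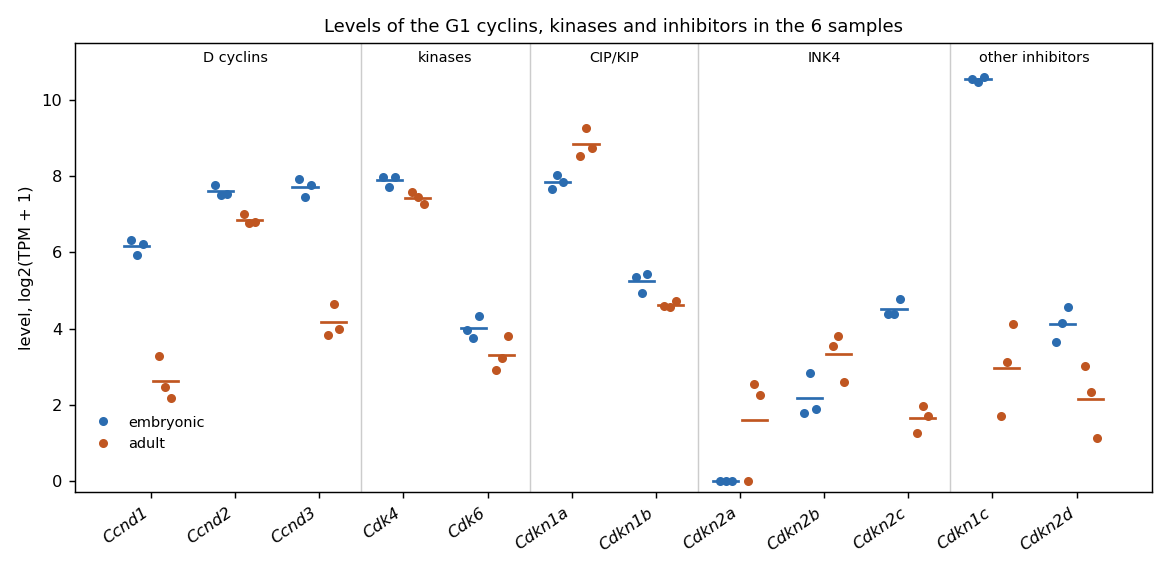
The level of each gene, as log2(TPM + 1) on the vertical axis, in the 3 embryonic (blue) and 3 adult (orange) samples, with a line at the mean of each stage and genes grouped by role. Ccnd1, Ccnd3, Cdkn2c and Cdkn1c separate widely between the stages, and the adult points of Cdkn1a lie above its embryonic points.

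The samples differed in more than these genes. Summed TPM of 6 chondrocyte markers was 18266 to 19696 in the embryonic and 8090 to 11068 in the adult replicates. Col2a1, Col9a1 and Matn3 were lower and Sox9 and Comp higher in the adult replicates. Most of the embryonic sum was Col2a1. Col2a1, Acan, Sox9 and Comp were abundant at both stages, whereas adult Col9a1 was at 27.2 to 64.3 TPM and adult Matn3 at 1.11 to 3.65 TPM. The 5 fibroblast and tendon markers summed to 5444 to 6605 TPM in the embryonic and 414 to 920 TPM in the adult replicates, the 3 hypertrophic chondrocyte markers to 21.7 to 80.8 and 957 to 1322 TPM, and the 4 osteoblast markers to 11.5 to 46.4 and 252 to 396 TPM. Within the hypertrophic list the adult sum was mostly Col10a1 (814 to 1096 TPM), with Mmp13 also higher in the adult replicates. Ihh went the other way, at 0.597 to 2.23 TPM in the embryonic and 0 in every adult replicate. It averaged 0.661 TPM over the 6 samples and was not tested. Within the fibroblast and tendon list the embryonic sum was mostly Col1a1 (4862 to 5971 TPM). Col1a1, Scx, Tnmd and Dpt were lower in the adult replicates, and Pdgfra did not pass (log2 fold change −0.33, limma adjusted p = 0.243). Within the osteoblast list the adult sum was mostly Ibsp (235 to 316 TPM), with Bglap also higher, whereas Dmp1 was lower in the adult replicates (log2 fold change −2.92, limma adjusted p = 0.00495) and Sp7 did not pass. Leukocyte markers summed to 5.15 to 13.7 and 17.9 to 72.2 TPM, with Cd3e at 0 throughout, endothelial markers to 10.6 to 23.0 and 3.79 to 10.8 TPM, muscle markers to 1.11 to 14.9 and 0.321 to 7.72 TPM, and erythroid markers to 0 to 104 and 1.41 to 33.8 TPM. The embryonic endothelial sum was mostly Tek, which was lower in the adult replicates (log2 fold change −3.04, limma adjusted p = 0.00098). Pecam1 went the other way, at 1.29 to 1.75 TPM in the embryonic and 2.79 to 6.87 TPM in the adult replicates. Pecam1 did not pass (log2 fold change 0.96, limma adjusted p = 0.123). Mean Cdh5 was 0.111 TPM in the embryonic and 1.25 TPM in the adult replicates, mean Kdr 1.25 and 0.442 TPM. Neither was tested. The skin markers Krt5 and Krt14 were listed at 0 in all 6 samples. The part of these other cell types in the results was not tested. In such bulk samples fewer cells of a type and less RNA per cell cannot be told apart. The 20 highest genes took 10.7% to 11.1% of the TPM in the embryonic and 14.6% to 17.7% in the adult replicates, and sex, digestion and the sort itself cannot be told apart from the stage.

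Cyclin D1, encoded by Ccnd1 (chr7:144929931-144939925, minus strand, GRCm38, gene positions from GENCODE M21), is the D cyclin most directly tied to growth factor signals. Its level was 78.7, 60.3 and 73.1 TPM in embryonic replicates 1 to 3 and 8.69, 4.49 and 3.51 TPM in adult replicates 1 to 3. Every adult sample lay far below every embryonic sample. The log2 level went from 6.16 ± 0.20 to 2.64 ± 0.57 (SD, n = 3 each), a log2 fold change of −3.52 (SE 0.319, 95% interval −4.25 to −2.80, limma adjusted p = 5.8e-05). In GENCODE 27.2% of the 50-base windows of the Ccnd1 transcripts also belong to LTO1 on the opposite strand, and whether reads were counted by strand was not stated. LTO1 itself moved the other way, with 7.94, 8.45 and 1.50 TPM in the embryonic and 16.8, 11.5 and 26.1 TPM in the adult replicates (log2 fold change 1.61, limma adjusted p = 0.042).

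Cyclin D3, encoded by Ccnd3 (chr17:47505051-47599691, plus strand), also fell, from a higher level. It stood at 243, 175 and 218 TPM in the embryonic replicates and at 13.2, 24.2 and 14.97 TPM in the adult replicates. The stages did not overlap, and the log2 fold change was −3.56 (SE 0.240, 95% interval −4.10 to −3.02, limma adjusted p = 1.2e-05). Bysl, on the opposite strand, and a Ccnd3 pseudogene share 14.6% of its 50-base windows, and Bysl had a log2 fold change of 0.36 that did not pass the test (limma adjusted p = 0.207).

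Cyclin D2, encoded by Ccnd2 (chr6:127125162-127152193, minus strand), fell the least of the 3. The embryonic replicates held 216, 180 and 184 TPM and the adult replicates 127, 108 and 110 TPM. These ranges did not overlap either, though the gap was narrow beside those of Ccnd1 and Ccnd3, and the log2 fold change was −0.75 (SE 0.136, 95% interval −1.06 to −0.44, limma adjusted p = 0.00248). The 3 cyclins held under each of the 16 alternative settings tried, with log2 fold changes of −3.84 to −3.29 for Ccnd1, −3.81 to −3.39 for Ccnd3 and −0.89 to −0.65 for Ccnd2.

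The make-up of the D cyclin pool therefore differed between the stages, besides its size. TPM is a level per transcript length, so that levels of different genes can be set side by side. Summed over the 3 genes, D cyclin TPM was 538, 415 and 475 in the embryonic and 148, 136 and 128 in the adult replicates. Ccnd2 made up 40.7% ± 2.36 of the embryonic and 83.3% ± 3.74 of the adult sum (SD, n = 3 each), Ccnd3 44.4% ± 1.98 and 12.8% ± 4.53, and Ccnd1 14.9% ± 0.48 and 3.96% ± 1.67. No range of these shares overlapped between the stages. As log2 ratios of TPM, Ccnd1 over Ccnd2 was −1.45 in the embryonic and −4.47 in the adult replicates and Ccnd3 over Ccnd2 was 0.13 and −2.76, with exact two-sided permutation p = 0.1 for each, the smallest p that 3 samples against 3 can give, and 0.2 after Benjamini-Hochberg adjustment over the 4 gene pairs compared. The ratio of Ccnd1 to Ccnd3 was −1.58 and −1.71, a difference of −0.13 (exact permutation p = 1), and adult replicates ran from −2.43 to −0.61 on that measure, so that a difference of this size was well within their spread.

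**Figure D2:**
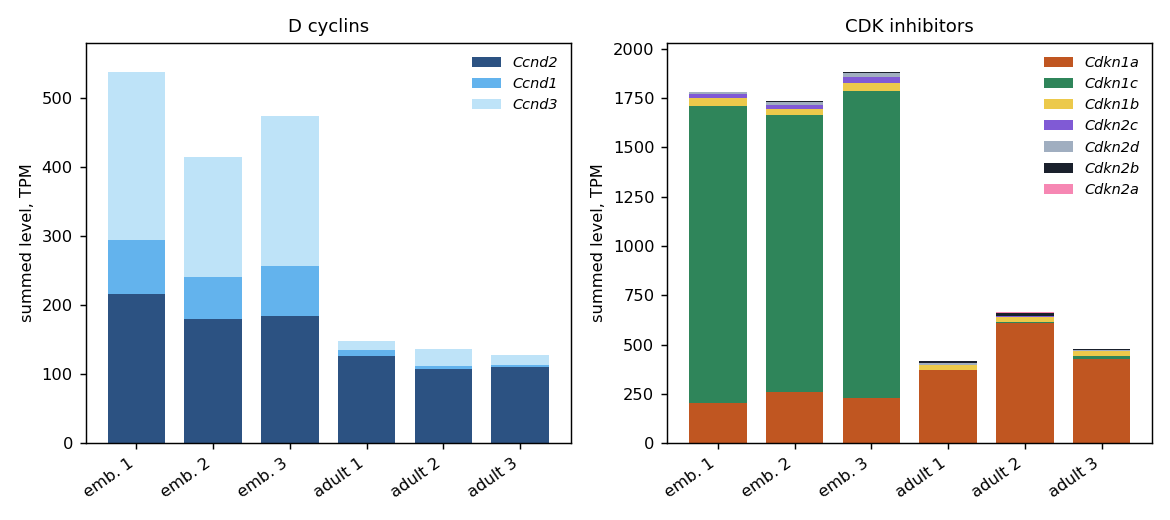
Summed TPM (vertical axes) of the 3 D cyclins (left) and of 7 CDK inhibitors (right) in each embryonic (emb.) and adult sample, with the height of each colour giving the TPM of 1 gene. The D cyclin sum was 415 to 538 in the embryonic and 128 to 148 in the adult replicates, where Ccnd2 filled most of the bar, and Cdkn1c filled most of the embryonic inhibitor bars and Cdkn1a most of the adult ones.

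Of the kinases, Cdk4 (chr10:127063534-127067920, plus strand) was the main form at both stages, with 94.0% ± 0.83 of the summed Cdk4 and Cdk6 TPM in the embryonic and 94.8% ± 2.31 in the adult replicates. Its level was 252, 207 and 252 TPM in the embryonic and 191, 175 and 152 TPM in the adult replicates. The highest adult sample lay just below the lowest embryonic one. The log2 fold change was −0.46 (SE 0.142, 95% interval −0.78 to −0.13, limma adjusted p = 0.0282), and the call was lost in 10 of 16 alternatives, with adjusted p from 0.0077 to 0.0996. Tspan31, on the opposite strand, shares 24.2% of the Cdk4 windows and had a log2 fold change of 0.48 (limma adjusted p = 0.114).

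Cdk6 (chr5:3341485-3531008, plus strand), the sister kinase, was the lower of the pair, at 14.5, 12.6 and 18.9 TPM in the embryonic and 6.50, 8.33 and 12.9 TPM in the adult replicates. Adult replicate 3 reached into the embryonic range. Its log2 fold change of −0.70 did not pass the test (SE 0.339, 95% interval −1.47 to 0.07, limma adjusted p = 0.121), and the log2 ratio of Cdk6 to Cdk4 differed by −0.31 between the stages (exact permutation p = 0.5, 0.667 after adjustment). Since the cyclins fell further than Cdk4, D cyclin TPM went from 1.89 ± 0.133 times to 0.758 ± 0.017 times the summed kinase TPM (SD, n = 3 each), a ratio computed after the values had been seen.

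Among the CIP/KIP inhibitors, Cdkn1a (chr17:29090976-29100727, plus strand) encodes p21, the product through which p53 is best known to halt the cell cycle. It stood at 203, 261 and 227 TPM in the embryonic and at 371, 609 and 426 TPM in the adult replicates. All adult replicates lay above all embryonic replicates, with adult replicate 2 the highest. The log2 fold change was 1.00 (SE 0.191, 95% interval 0.57 to 1.43, limma adjusted p = 0.00311) and held under all 16 alternatives, at 0.79 to 1.17 with adjusted p of 0.00163 to 0.0397. A transcript model of unknown kind, AC167363.2, lies on its opposite strand, and 11.1% of the 50-base windows of Cdkn1a occur in other genes as well.

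Cdkn1b (chr6:134920401-134925513, plus strand), which encodes p27, went the other way, at 39.5, 29.7 and 42.0 TPM in the embryonic and 23.2, 22.7 and 25.3 TPM in the adult replicates. The adult replicates lay close together, below the lowest embryonic sample. With a log2 fold change of −0.61 (SE 0.211, 95% interval −1.09 to −0.13, limma adjusted p = 0.0424) it was the call nearest the threshold, and it was lost in 10 of 16 alternatives, with adjusted p from 0.0153 to 0.144.

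Among the INK4 inhibitors, Cdkn2c (chr4:109660876-109667189, minus strand), which encodes p18, was the one with a clear difference. Its level was 19.92, 19.96 and 26.6 TPM in the embryonic and 1.41, 2.93 and 2.25 TPM in the adult replicates. All adult replicates lay under 3 TPM, and the log2 fold change was −2.87 (SE 0.353, 95% interval −3.67 to −2.07, limma adjusted p = 0.00031), with −3.32 to −2.68 over the 16 alternatives.

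Cdkn2a and Cdkn2b lie next to each other on chromosome 4 (chr4:89274471-89294653 and chr4:89306299-89311039, both minus strand), 11646 bases apart. Cdkn2b, which encodes p15, stood at 2.45, 6.07 and 2.71 TPM in the embryonic and 10.7, 13.0 and 5.05 TPM in the adult replicates. Embryonic replicate 2 exceeded adult replicate 3, so the stages overlapped, and the log2 fold change of 1.15 did not pass the test (SE 0.475, 95% interval 0.08 to 2.23, limma adjusted p = 0.0765). Cdkn2b did not pass in 15 of the 16 alternatives (limma adjusted p up to 0.216). It passed only without adult replicate 3, the one adult value within the embryonic range (log2 fold change 1.52, limma adjusted p = 0.0328). That p was set by the choice of samples and is read as nothing.

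Cdkn2a encodes p16 and, in another reading frame, ARF, which stabilises p53 through MDM2. The gene-level value does not separate its 2 annotated transcripts. Its value was 0 in every embryonic replicate, and adult replicates 1 to 3 were listed at 0, 4.79 and 3.78 TPM. Signal was thus present in adult replicates 2 and 3 and at 0 in adult replicate 1, and no fold change is given against a stage at 0. It reached a mean of 1 TPM through those 2 replicates alone, and the test did not pass (limma adjusted p = 0.0955). Leaving out adult replicate 1 removes the one adult value at 0, so the p of that fit (limma adjusted p = 0.00611) was set by the choice of samples and is read as nothing.

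**Figure D3:**
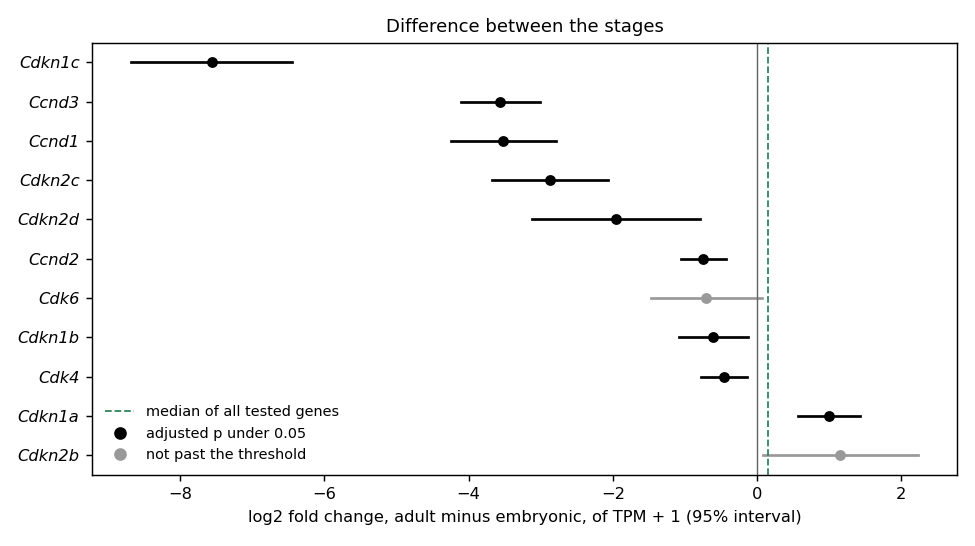
Log2 fold change of TPM + 1, adult minus embryonic (horizontal axis), with its 95% interval, for 9 of the 10 genes and for the 2 remaining CDK inhibitors. Black points passed the adjusted p threshold of 0.05, grey points did not, and the dashed line marks the median of all tested genes at 0.16. Cdkn2a is left out because its embryonic values were 0.

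Ordered by level, the embryonic replicates began with Cdk4 (237 TPM on average), Cdkn1a (230), Ccnd3 (212) and Ccnd2 (193), of which each neighbour overlapped the next in its range. Ccnd1 (70.7), Cdkn1b (37.1), Cdkn2c (22.1), Cdk6 (15.3) and Cdkn2b (3.74) followed, each apart from its neighbours, and Cdkn2a was at 0. In the adult replicates the order began with Cdkn1a (469), Cdk4 (173) and Ccnd2 (115), each apart from the next. Cdkn1b (23.7) and Ccnd3 (17.5) overlapped, and Cdkn2b (9.61), Cdk6 (9.23), Ccnd1 (5.56), Cdkn2a (2.86) and Cdkn2c (2.20) overlapped in turn. Ccnd3 thus stood above Ccnd2 in mean level in the embryonic replicates, within their spread, and well below it in the adult replicates.

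The 2 CDK inhibitors outside the 10 genes complete the picture. Cdkn1c, an imprinted gene that encodes p57, was at 1507, 1405 and 1560 TPM in the embryonic and at 2.25, 7.65 and 16.4 TPM in the adult replicates. It was the most abundant of the 7 inhibitor genes in every embryonic sample and had the largest fall of the 90 pathway genes examined, a log2 fold change of −7.56 (SE 0.490, limma adjusted p = 9.8e-06). An antisense gene, Gm44732, shares 25.7% of its 50-base windows. Cdkn2d, which encodes p19 of the INK4 group, was at 11.5, 16.7 and 22.9 TPM in the embryonic and 7.05, 4.08 and 1.20 TPM in the adult replicates, a log2 fold change of −1.96 (limma adjusted p = 0.014) that was lost in 4 of 16 alternatives.

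Summed over the 7 inhibitor genes, TPM was 1784, 1738 and 1881 in the embryonic and 416, 665 and 480 in the adult replicates. Cdkn1c made up 82.8% ± 1.84 of the embryonic and 1.70% ± 1.52 of the adult sum, and Cdkn1a 12.8% ± 1.92 and 89.9% ± 1.57 (SD, n = 3 each). The pool thus went from mostly Cdkn1c to mostly Cdkn1a, with no overlap of these shares between the stages. Set against the D cyclins, a comparison added after the values had been seen, the 7 inhibitors stood at 3.82 ± 0.450 times D cyclin TPM in the embryonic and 3.80 ± 1.04 times in the adult replicates, whose values of 2.80, 4.87 and 3.74 enclosed all 3 embryonic values. Without Cdkn1c and Cdkn2d the ratio was 0.627 ± 0.135 and 3.71 ± 1.03, with all adult values above all embryonic ones. These are ratios of RNA levels and hold no information on protein.

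Promoter sequence was available for 8 of the 10 genes in a RefSeq table of the GRCm38.p6 assembly, as 12 windows, of which the 250 bases before each start site were searched. The second windows of Ccnd3, Cdkn1a and Cdkn2a, the Cdk6 window and both Cdkn2c windows lie wholly inside the GENCODE gene. The CCAAT of Ccnd3, the E-box and TATAAA of Cdk6 and the GC boxes of Cdkn1a and Cdkn2c come from such windows. The windows of 3 genes are shown, a D cyclin that fell strongly, the main kinase and the inhibitor that rose, all plus strand and written 5′ to 3′. In Ccnd3 (chr17:47504801-47505050) capitals mark GC boxes (GGGCGG on either strand). In Cdk4 (chr10:127063285-127063534) they mark E-boxes (CACGTG, the same on both strands), the sequence that MYC and related factors bind. In Cdkn1a (chr17:29090729-29090978) they mark p53 half-sites.
Ccnd3: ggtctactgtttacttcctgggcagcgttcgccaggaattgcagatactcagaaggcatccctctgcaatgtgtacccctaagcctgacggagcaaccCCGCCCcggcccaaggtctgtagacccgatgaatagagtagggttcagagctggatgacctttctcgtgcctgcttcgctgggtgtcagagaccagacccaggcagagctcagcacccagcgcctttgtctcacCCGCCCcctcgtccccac
Cdk4: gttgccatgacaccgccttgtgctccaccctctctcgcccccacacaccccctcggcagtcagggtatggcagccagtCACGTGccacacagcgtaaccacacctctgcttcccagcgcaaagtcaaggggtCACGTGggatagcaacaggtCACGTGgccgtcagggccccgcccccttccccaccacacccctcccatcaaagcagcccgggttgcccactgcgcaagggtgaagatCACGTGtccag
Cdkn1a: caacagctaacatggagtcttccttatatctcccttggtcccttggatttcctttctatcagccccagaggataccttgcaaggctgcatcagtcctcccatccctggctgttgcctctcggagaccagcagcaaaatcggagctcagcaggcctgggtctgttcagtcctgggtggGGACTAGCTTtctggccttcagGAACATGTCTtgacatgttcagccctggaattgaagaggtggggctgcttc

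The Cdk4 window held 4 E-boxes and the Cdk6 window 1; those of Cdk4 lay at positions −172, −118, −98 and −11 from the start site, where 6.02% of the 32851 windows of all genes held any and 0.0213% held at least 4. The Cdkn1a window lies before the first of its 2 annotated starts, which are 2790 bases apart, and held half-sites at positions −73 and −51. The one at −51 is followed at once by a near copy, so that together they match 19 of the 20 letters of a full p53 site, as 0.0761% of all windows do, whereas the window before the second start reached 15 letters. Searches for E-boxes and full p53 sites were added after the sequences had been seen. A half-site occurred in 7.13% of all windows and among the 8 genes searched in Cdkn1a only. A GC box was found in 7 of the 12 windows, from 6 genes, beside 32.7% of all windows, and an E2F site (TTTNNCGC with C or G at each N, either strand) in 1 window, of Cdkn2a, beside 1.86%. The CHR element TTTGAA was in 1 window (Cdkn2b) beside 16.0% of all windows, CCAAT in 2 (Ccnd3 and Cdkn1b) beside 33.9%, and TATAAA in 1 (Cdk6) beside 12.4%, each on either strand. A match is a description of the letters and shows no binding.

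Downstream of the D cyclin kinases, the genes of S phase entry were lower in the adult replicates. Counts for the lists below stand beside 23.9% higher and 21.4% lower in the adult replicates over all tested genes. All 6 genes of the cyclin E and cyclin A group with their kinases and phosphatase fell, with a median log2 fold change of −3.08 beside 0.16 over all tested genes. Ccne1, the cyclin that takes over from the D cyclins to drive CDK2, was at 111, 84.3 and 112 TPM in the embryonic and at 2.20, 16.9 and 0.487 TPM in the adult replicates (log2 fold change −4.54, limma adjusted p = 0.00148). Of 14 S phase genes that E2F factors switch on, 13 fell and none rose, with a median of −1.43. Rrm2, a subunit of the enzyme that makes deoxynucleotides, fell the most, from 98.3, 80.8 and 109 TPM to 6.89, 10.2 and 6.40 TPM (log2 fold change −3.47, limma adjusted p = 1.4e-05), while Pcna, the sliding clamp of DNA polymerase, fell by 0.58 on the log2 scale and kept 138 to 181 TPM in the adult replicates.

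Of 8 division markers 7 fell, with a median of −3.58. Aurkb, a mitotic kinase, was at 36.9, 41.2 and 45.5 TPM in the embryonic and at 0, 1.14 and 1.42 TPM in the adult replicates (log2 fold change −4.60, limma adjusted p = 5.8e-05). Adult replicate 3 stood above the other adult replicates in all 8 of these genes, though narrowly in Aurkb and Plk1. It held 19.02 TPM of Aurka, which did not pass the test, beside 0.549 and 3.98 TPM, and 19.8 TPM of Ccnb1 beside 3.08 and 0 TPM. E2f1 was likewise at 80.2 TPM in that sample, above every embryonic sample, and at 17.9 and 20.3 TPM in the other adult replicates. In the same sample Ccnd1 was at its lowest, 3.51 TPM, and Cdk6 at its highest adult level, 12.9 TPM. Ccne1 (0.487 TPM) and Mcm4 (10.8 TPM) were also at their lowest there. The other genes of their lists were mixed in that sample. Cdk1 (25.4 TPM), Ccna2 (9.57 TPM), Ccne2 (11.5 TPM) and Cdc25a (18.4 TPM) were at their highest adult level, and Cdk2 (6.85 TPM) at its lowest. Of the S phase genes Mcm3, Mcm5, Rrm1 and Cdt1 were highest there among the adult replicates. Pcna, Mcm6, Mcm7, Rrm2, Tyms and Tk1 were lowest.

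The targets of the kinases and their partners moved less evenly. Of the 3 pocket proteins, Rbl2, which encodes p130 of resting cells, rose from 16.1, 9.45 and 14.6 TPM to 32.6, 30.8 and 28.0 TPM (log2 fold change 1.16, limma adjusted p = 0.00721), while Rb1 had a log2 fold change of 0.18 and Rbl1 one of −0.25, neither past the test (limma adjusted p = 0.68 and 0.589). Of 10 E2F and DP genes 4 fell and 1 rose, beside 21.4% lower and 23.9% higher over all tested genes. E2f7, a repressor E2F that is itself an E2F target, was at 46.8, 44.0 and 68.0 TPM in the embryonic and at 0, 1.46 and 0 TPM in the adult replicates (log2 fold change −5.29, limma adjusted p = 4e-05). Tfdp1, the partner with which E2Fs bind DNA, had a log2 fold change of 0.40 (limma adjusted p = 0.0379), a call lost in 9 of 16 alternatives. Of 7 genes of the MuvB complex and its partners 4 fell, led by Foxm1, an activator of mitotic genes (log2 fold change −3.56, limma adjusted p = 0.00114).

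Genes that act on the stability and assembly of the D cyclins and p27 were mixed. Of 8, Fbxo31, a ubiquitin ligase subunit that recognises cyclin D1, rose from 3.10, 2.94 and 1.43 TPM to 38.9, 55.4 and 37.9 TPM (log2 fold change 3.71, limma adjusted p = 6e-05), the largest rise of the 90 pathway genes on the log2(TPM + 1) scale, though not as a ratio of mean TPM, which was 17.7 for Fbxo31 and 35.1 for Cbx7. The Cbx7 ratio rests on an embryonic mean of 0.360 TPM, with signal in embryonic replicate 2 alone. Skp2 and Cks1b, which together mark p27 for breakdown, fell along with the scaffold Cul1. Skp2 was at 24.6 to 26.7 TPM in the embryonic and 5.32 to 11.96 TPM in the adult replicates, and Cks1b had the largest fall of the group (log2 fold change −2.53, limma adjusted p = 0.00541, 0.0712 with no filter on low values). Cdkn1b RNA was lower in those same adult replicates. None of the 5 genes of the CDK activating kinase and the chaperones of CDK4 passed the test, with a median of −0.06.

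Of 16 genes of p53 and its targets 8 rose and 2 fell, beside 23.9% higher and 21.4% lower over all tested genes. Their median log2 fold change was 0.57. Bax, a promoter of cell death, rose the most, from 22.3, 26.6 and 33.7 TPM to 215, 214 and 189 TPM (log2 fold change 2.88, limma adjusted p = 7.8e-06), and Trp53, Mdm2, Btg2, Gadd45a, Phlda3, Ccng1 and Trp53inp1 were the others that rose. Gadd45a stood at 227 to 262 TPM in the embryonic and 504 to 669 TPM in the adult replicates, and Trp53 itself at 87.2 to 112 and 123 to 162 TPM. Sesn2 and Pmaip1 fell, the latter to 0, 0.127 and 0 TPM from 2.73 to 6.52 TPM (log2 fold change −2.41, limma adjusted p = 0.00366). Bbc3, which encodes the death factor PUMA, had a log2 fold change of 0.06 and did not pass (limma adjusted p = 0.853).

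Of the 3 FOXO factors, which switch on Cdkn1b and Cdkn1a among other genes, Foxo1 rose from 17.8, 15.9 and 20.2 TPM to 47.8, 52.3 and 49.9 TPM (log2 fold change 1.43, limma adjusted p = 0.00049). Foxo3 had a log2 fold change of 0.43 and Foxo4 one of −0.62, neither past the test (limma adjusted p = 0.0992 and 0.186). Foxo3 did not pass in 15 of the 16 alternatives (limma adjusted p up to 0.251). It passed only without adult replicate 3, its lowest adult value (log2 fold change 0.57, limma adjusted p = 0.0387), a p set by the choice of samples. Without adult replicate 1 Foxo4 was at −0.22. Of 8 Polycomb genes known to repress the Cdkn2a locus 3 rose and 2 fell, beside 23.9% higher and 21.4% lower over all tested genes. Ezh2, the histone methyltransferase, went from 219, 137 and 173 TPM to 33.2, 37.2 and 25.1 TPM (log2 fold change −2.42, limma adjusted p = 5.6e-05). Cbx7, a reader of its mark, was at 0, 1.08 and 0 TPM in the embryonic and 15.6, 17.3 and 4.99 TPM in the adult replicates (log2 fold change 3.26, limma adjusted p = 0.00204), and Bmi1 and Ring1 rose and Rnf2 fell.

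**Figure D4:**
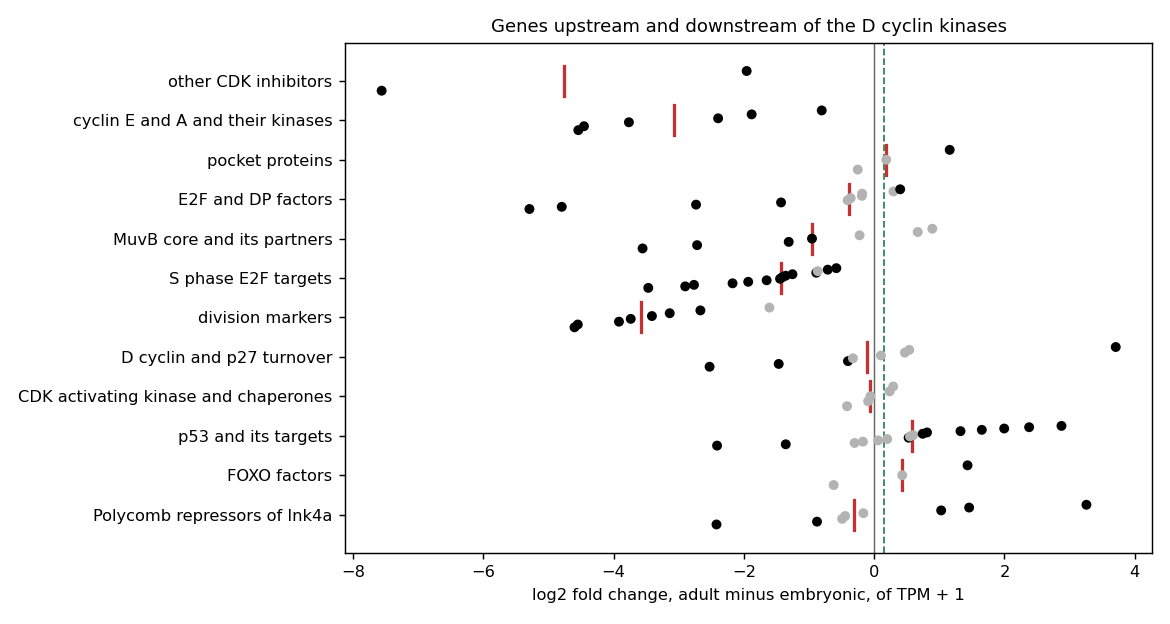
Log2 fold change of TPM + 1, adult minus embryonic (horizontal axis), of each gene in the 12 pathway lists (vertical axis), black where the adjusted p was under 0.05 and grey otherwise, with a red bar at the median of each list and a dashed line at the median of all tested genes, 0.16. The cyclin E and A, S phase and division lists lie to the left, and the p53 list lies mostly to the right.

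Over all 12 lists 15 of the 90 genes rose, 43 fell and 32 did not pass, with a median of −0.54. Over all tested genes 23.9% were higher and 21.4% lower in the adult replicates. The cyclin E and A, E2F, MuvB, S phase and division lists all hold genes of dividing cells, and their genes are not independent of each other.

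The genes most like Ccnd3 over the 6 samples, by the root mean square difference of log2(TPM + 1) after each gene was centred on its mean, were Vash1 (0.118), Rrm2 (0.138) and Tox (0.142). Those most like Cdkn1a were Uvrag (0.0591), Degs1 (0.0663) and Abcg1 (0.086). Abcg1 did not pass the test of the stage itself (log2 fold change 1.04, limma adjusted p = 0.0615). The measure includes the difference between the stages.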

How the data were processed

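RNA-seq of 6 mouse samples, 3 per stage, was analysed. Reads were aligned to GRCm38 and gene levels estimated with RSEM by the authors (version not given in the sources used here), who deposited log2(TPM + 1) values per gene. The deposited log2 values were taken back to TPM, where each sample adds up to 1000000, so that depth is unknown and precision rests on the spread between 3 samples. The labels name a Kapa mRNA-Seq kit, and the methods Nugen Ovation cDNA with a Kapa LTP library.

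Stages were compared on log2(TPM + 1), a pseudocount of 1, with limma 3.58.1 in R 4.3.3 (lmFit, eBayes with trend) where the 6 samples averaged 1 TPM or more, at a Benjamini-Hochberg adjusted p under 0.05. Stage was the only term of the model. EBSeq, named in the methods, was not used here. For ratios of gene pairs the test was an exact permutation over samples, two-sided. The script was tested on simulated data. Samples were grouped by the labels.

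The 10 genes and the pathway and marker lists were chosen with earlier results of these data known. Within each pathway list the called genes with the largest rise and fall are named, with all genes of lists of up to 3. For the genes with the largest rise and fall among those of the 10 past the threshold (Cdkn1a and Ccnd3, on the log2 scale), the 3 tested genes most alike are named. Others were named after their values were seen. A symbol was matched for 21902 identifiers and not for 130. Gene positions and shared 50-base windows come from GENCODE M21, and upstream sequence from a RefSeq table. Alternatives changed the pseudocount (0.1), the filter (none, or 5 TPM on average), the scaling (quantile, median of ratios, or leaving out the 20 highest genes), the eBayes step (no trend, or robust), the threshold (0.01) and the samples (each omitted in turn), or added the replicate number as a block. Figures were made with Python 3.11.15 and matplotlib 3.10.9.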

Additional observations from a re-analysis of the deposited data

How the results depend on the processing

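Over the 16 alternatives 5 to 7 of the 10 genes passed the threshold, and Ccnd1, Ccnd2, Ccnd3, Cdkn1a and Cdkn2c passed in each of them. The number called higher was 1 to 2 when single samples were left out, the second gene being Cdkn2a without adult replicate 1 and Cdkn2b without adult replicate 3. Cdk4 was not called without embryonic replicate 1 or 3 or adult replicate 2 or 3 (limma adjusted p = 0.0519 to 0.0996), nor Cdkn1b without embryonic replicate 1 or 3 or any adult sample (0.0529 to 0.144). Both were also lost with no filter (0.0702 and 0.0516), without the 20 highest genes (0.0698 and 0.0723) and in eBayes without trend (0.0981 and 0.0514), Cdk4 with quantile normalization (0.0541), under which Cdk6 was called (0.0496) and Rb1 turned to −0.028 (limma adjusted p = 0.953). At an adjusted p under 0.01, 3718 of all tested genes passed, 1855 higher and 1863 lower, beside 5949, 3140 and 2809 in the fit reported. The split was 2613 higher and 3238 lower with median-of-ratios scaling, and 3509 and 2526 without the 20 highest genes. The median of all tested genes, 0.16, was 0.03 with median-of-ratios scaling and 0.25 without the 20 highest genes, and no direction of the 10 genes turned under either. The causes of these changes were not tested.

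Same-numbered samples did not deviate together (correlations of −0.0223 to −0.0088), so the numbers were not taken as a pairing. With the replicate number as a block, Cdk4 (limma adjusted p = 0.0533), Cdkn1b (0.068) and Tfdp1 (0.0766) were not called.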
